A study of Mus musculus with 14 samples.

Results

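Leukocytes sorted from mouse liver at 10000 cells per sample were compared with leukocytes sorted at 20000 cells per sample. The comparison used the 3 libraries made from 10000 cells and the 3 made from 20000 cells, 6 of the 14 libraries in the series, chosen by their titles. The cells were CD45+ (CD45 is a tyrosine phosphatase on the surface of leukocytes) and were isolated by flow cytometry. The tissue was needle biopsy material of liver from wild-type mice without treatment. The other 8 libraries were made from 2500 cells (3 libraries), 5000 cells (3 libraries) and bulk liver (2 libraries). Strain, age and sex are not given in the labels. Nor do they say whether the 3 libraries at a cell number represent different animals or aliquots of one sort. The p-values therefore describe the spread among these samples, and that spread may be technical. Total counts were 9482496, 9834628 and 9743133 in the libraries of 10000 cells, against 6723357, 9272922 and 7732012 in those of 20000 cells. Of 48794 annotated genes, 14795 had enough counts to be tested.

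Both groups are the same kind of sample, and the comparison asks how far the measured transcriptome depends on the number of cells that entered RNA extraction. The liver holds B cells, T cells and natural killer cells beside circulating monocytes and neutrophils, and Kupffer cells, its resident macrophages, line the sinusoids. The libraries were made with SMART-seq v4, in which oligo-dT primes the first strand, a template switch completes the cDNA, and PCR amplifies it before fragmentation by a transposase. The labels do not say whether equal amounts of RNA entered that reaction. Most of the RNA in a cell is ribosomal RNA, which lacks the long poly(A) tail that oligo-dT binds.

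The sort label held alike in both groups. Ptprc, the gene of CD45 (ENSMUSG00000026395, chromosome 1, 138062861 to 138175708, minus strand of GRCm38), stood at 2610.4, 2619 and 2575 CPM (counts relative to library totals scaled by TMM factors) in the libraries of 10000 cells, against 2482, 2485 and 2483 CPM in those of 20000 cells. Its log2 fold change of 10000 over 20000 cells was 0.07 (SE 0.04; adjusted p = 0.65, edgeR). All 3 libraries of 10000 cells lay above the 3 of 20000 cells, which held for 10.4% of all tested genes. All adjusted p-values here come from the quasi-likelihood F test of edgeR, with the adjustment of Benjamini and Hochberg over all tested genes. The 15 pan-leukocyte genes took 1.80 ± 0.0287% of counts at 10000 cells and 1.76 ± 0.0415% at 20000 cells (SD, n = 3 each; exact two-sided permutation p = 0.3). With 3 libraries against 3 that test cannot go below 0.1.

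Only a small part of the tested genes passed the threshold between the groups. Of the 14795 genes, 45 passed an adjusted p of 0.05, which is 0.304%, and 43 of them were lower (0.291% of all tested) and 2 higher (0.0135%) at 10000 cells. The median log2 fold change of all tested genes was 0.00699, and 1504 genes had an unadjusted p under 0.05. The 43 lower genes had a median log2 fold change of -0.55, and 8 of them differed at least 2-fold. In all 43 the 3 libraries of 10000 cells lay below the 3 of 20000 cells, which held for 9.13% of all tested genes. Over all tested genes 10.4% had the libraries of 10000 cells above. The 43 were selected by p on these same libraries, so their separation follows largely from the selection and is not separate support. The number of calls depended on single libraries. It was 10, 13 and 9 without libraries 1, 2 and 3 of 10000 cells, 50, 13 and 7 without libraries 1, 2 and 3 of 20000 cells, and 114 without library 3 of 2500 cells, when 15194 genes were tested. By DESeq2 27 genes were higher and 170 lower at 10000 cells, and by edgeR on the 6 libraries alone 9 were higher and 166 lower. Lars2, Mir6236, Gm15564, Max, Kctd12 and Ly6c2 were called without each of the 12 sorted libraries in turn.

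**Figure D1:**
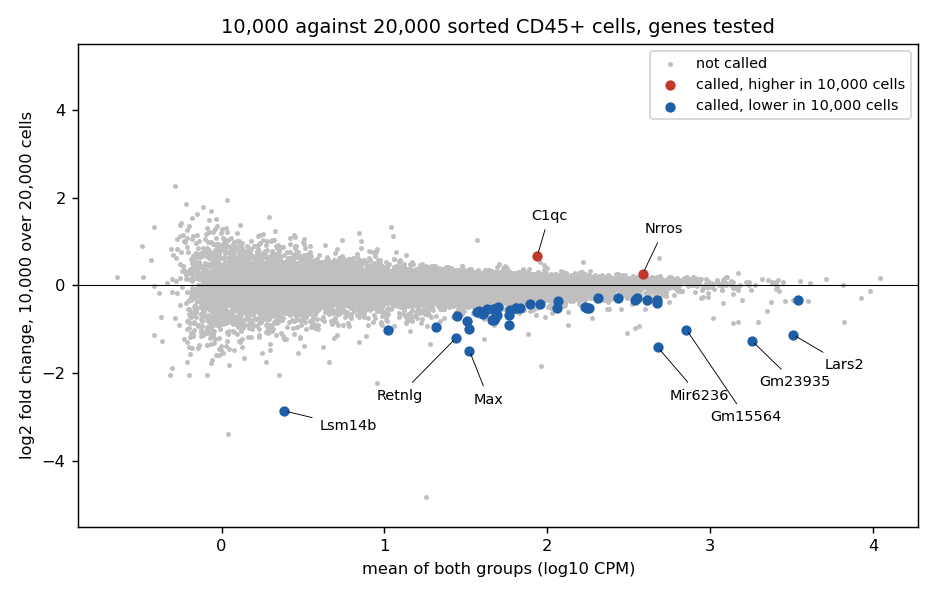
Each point is one of the 14795 tested genes, with the mean of both groups on the x axis (log10 CPM) and the log2 fold change of 10000 over 20000 cells on the y axis. The 43 genes called lower at 10000 cells (blue) reach from low to high levels, while the 2 called higher, C1qc and Nrros, are red.

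The 3 genes with the smallest p, Lars2, Mir6236 and Gm15564, belong to a list of gene models named here ribosomal RNA-like. Whether their reads in these libraries came from ribosomal RNA was not tested. The list of 12 such models, taken to collect ribosomal reads in mouse libraries, was chosen with earlier results of these data known. It had 9 members in the table and 7 tested, of which 4 fell at 10000 cells, 0 rose and 3 did not pass. Over all tested genes 0.291% fell. The list median was -1.01, against 0.00699 for all genes. The sequences of the shortest 2 called models are shown so that they can be set against ribosomal RNA, a comparison that was not tested. That of the microRNA is from RefSeq (GRCm38.p6, chr9:110281353-110281371, plus strand) with the seed, bases 2 to 8, in capitals, and that of Gm23935 is the whole gene model read from GRCm38 (chr16:11144125-11144181, plus strand).
mmu-miR-6236: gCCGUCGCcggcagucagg
Gm23935: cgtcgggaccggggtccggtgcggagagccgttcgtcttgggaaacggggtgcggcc

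Lars2, which encodes the mitochondrial leucyl-tRNA synthetase (chromosome 9, 123366927 to 123462666, plus strand), had 2142, 2021 and 1932 CPM in the libraries of 10000 cells, against 4969, 3958 and 4348 CPM in those of 20000 cells. The groups did not overlap. That is a log2 fold change of -1.12 (SE 0.08; adjusted p = 9e-07, edgeR). Mir6236, annotated as a microRNA gene of 123 bases (chromosome 9, 110281287 to 110281409), had 279, 292 and 210.5 CPM at 10000 cells, against 649.8, 701 and 727 CPM at 20000 cells, a log2 fold change of -1.41 (SE 0.10; adjusted p = 9.4e-07, edgeR). Reads over its whole precursor were counted, so the value is not one of the mature microRNA.

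Gm15564, an antisense transcript on chromosome 16 (35966752 to 35983230, minus strand), had 503, 475 and 444 CPM at 10000 cells, against 1073, 847 and 939 CPM at 20000 cells (log2 fold change -1.01, SE 0.08; adjusted p = 4e-06, edgeR). Its order of libraries was that of Lars2 within both groups. The transcripts share an identical run of 52 bases, which in Lars2 lies in the 3' UTR (chromosome 9, 123462048 to 123462099), so the counting may split reads between them and they are not independent observations. Gm23935, a model of 57 bases inside the span of Zc3h7a on the opposite strand, had 1153, 1054 and 970.3 CPM at 10000 cells, against 3112, 2049 and 2444 CPM at 20000 cells (log2 fold change -1.26, SE 0.15; adjusted p = 0.009, edgeR). Its call was lost without library 2 of 10000 cells (adjusted p = 0.068, edgeR), without library 3 of 10000 cells (adjusted p = 0.092, edgeR) and in a fit of the 6 libraries alone (adjusted p = 0.056, edgeR).

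The 3 remaining models lie side by side on chromosome 17 and were also lower in every library of 10000 cells, but did not pass. CT010467.1 had 1472, 1695 and 1039 CPM at 10000 cells, against 2209, 2447 and 2863 CPM at 20000 cells (log2 fold change -0.84, SE 0.25; adjusted p = 0.29, edgeR). Gm42418, whose 1831 bases lie wholly inside the span of CT010467.1 on the opposite strand, had a log2 fold change of -0.74 (adjusted p = 0.24, edgeR), and Gm26917 had -0.37 (adjusted p = 0.69, edgeR). In these 3 models and in Mir6236, library 3 of 10000 cells was the lowest and library 3 of 20000 cells the highest of its group. Whether counting used strand was not stated, so reads of overlapping models on opposite strands cannot be told apart. The share of all counts on the list was 0.812 ± 0.126% at 10000 cells and 1.50 ± 0.0987% at 20000 cells (SD, n = 3 each; exact two-sided permutation p = 0.1, the smallest possible).

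**Figure D2:**
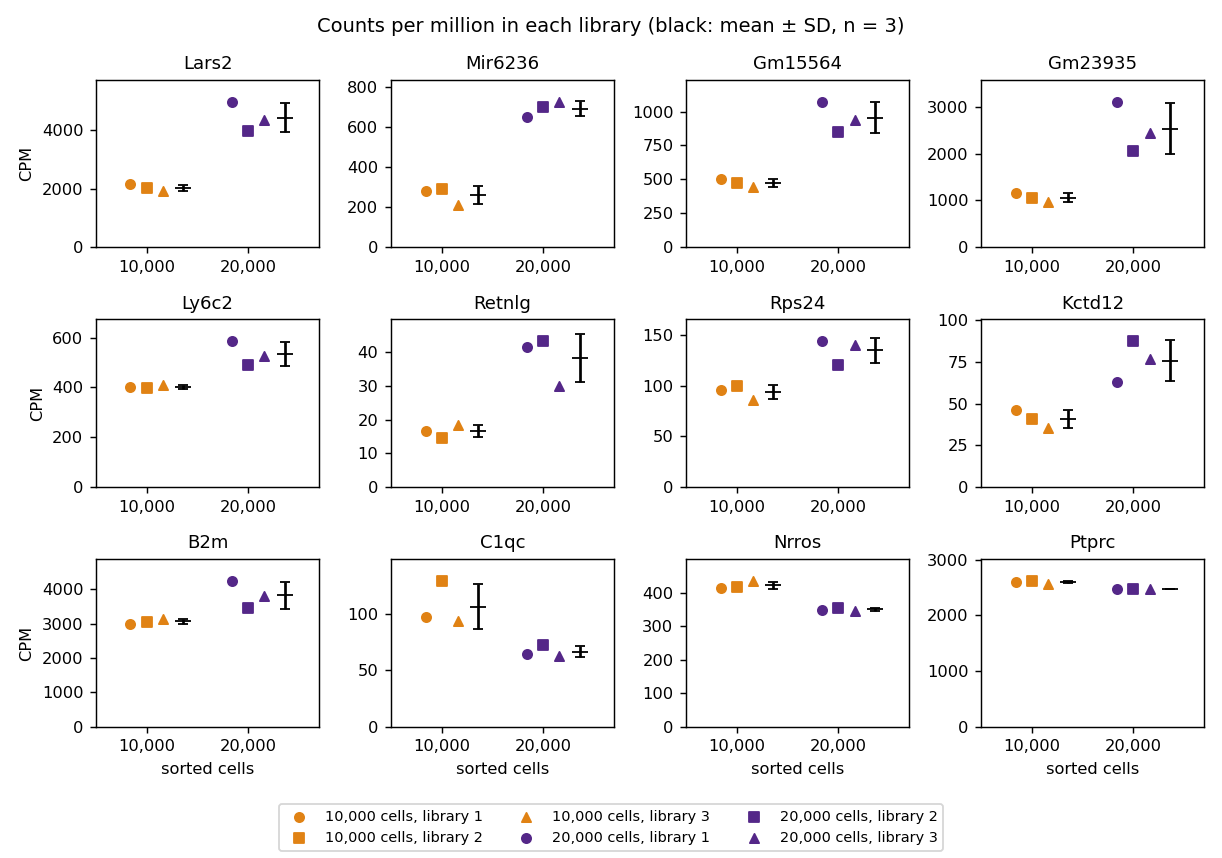
CPM in each library of 10000 cells (orange) and 20000 cells (purple) for 12 genes, with circles, squares and triangles for libraries 1, 2 and 3 and the mean ± SD in black. The groups do not overlap in any of the 12 genes, and Ptprc differs by a factor of 1.05.

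The deposited TPM table, made separately from the counts, bears on these models in part. There Lars2 had 969, 923 and 864 TPM at 10000 cells, against 2043, 1746 and 1851 TPM at 20000 cells, and its call held. Mir6236, Gm15564 and Gm23935 are listed at 0 TPM in all 6 libraries. Against 5000 cells the 4 called models went the other way at 10000 cells, with log2 fold changes of 10000 over 5000 cells between 0.14 and 0.85, none of which passed. The other 3 tested models were lower at 10000 than at 5000 cells, with log2 fold changes of -0.44 for CT010467.1, -0.28 for Gm42418 and -0.23 for Gm26917, and did not pass either. Lars2 averaged 1486 CPM at 2500 cells, 1468 CPM at 5000 cells, 2032 CPM at 10000 cells and 4425 CPM at 20000 cells. Gm23935 averaged 608, 588, 1059 and 2535 CPM in the same order, while CT010467.1 averaged 2099, 1901, 1402 and 2506 CPM, with its lowest mean at 10000 cells. These comparisons share libraries with the main one.

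Most transcripts of the mitochondrial genome were lower at 10000 cells without overlap between the groups, but none passed the test. The mitochondrion encodes its own ribosomal RNAs and 13 subunits of the respiratory chain. The ribosomal RNA mt-Rnr2 had 4907, 4705 and 4682 CPM at 10000 cells, against 7865, 8593 and 8982 CPM at 20000 cells (log2 fold change -0.83, SE 0.19; adjusted p = 0.17, edgeR), and mt-Rnr1 had a log2 fold change of -0.83 (SE 0.30; adjusted p = 0.38, edgeR). Of the 13 protein-coding genes 8 were tested and 5 had 0 counts in the 6 libraries. All 8 estimates were below 0, with a median of -0.37, and 0 passed. In 7 all libraries of 10000 cells lay below those of 20000 cells, which held for 9.13% of all tested genes. mt-Nd2, a subunit of complex I, had 1853, 1817 and 1653 CPM at 10000 cells, against 2698, 2549.7 and 2734 CPM at 20000 cells (log2 fold change -0.58; adjusted p = 0.35, edgeR). The 13 genes took 1.35 ± 0.00391% of counts at 10000 cells and 1.74 ± 0.0688% at 20000 cells (SD, n = 3 each; exact two-sided permutation p = 0.1). This share rests on the 8 tested genes alone, and why the other 5 had 0 counts was not tested.

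Here the mean of the 10000-cell group was the lowest of the 4 cell numbers. Mean levels of mt-Nd1 were 4076, 4539.9, 2837 and 3580.0 CPM at 2500, 5000, 10000 and 20000 cells, and those of mt-Rnr2 were 6989, 7944, 4765 and 8480.0 CPM. The median log2 fold change of 10000 over 5000 cells was -0.75 over the 8 genes. CT010467.1 and Gm42418 also had their lowest mean at 10000 cells, whereas Lars2 and Gm23935 had theirs at 5000 cells. The 8 genes lie on 1 circular genome transcribed as long precursors, so they are not independent.

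**Figure D3:**
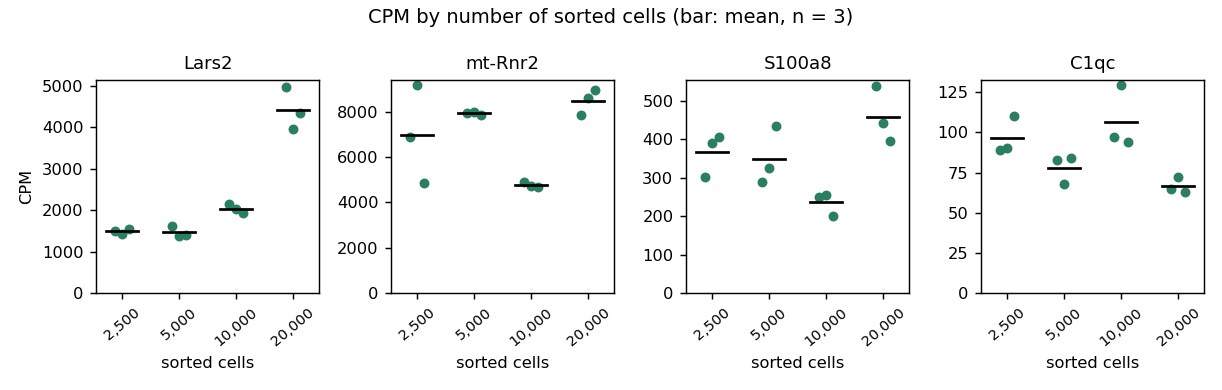
CPM of 4 genes in each library (points) with group means (bars) over 2500, 5000, 10000 and 20000 sorted cells. Lars2 is highest at 20000 cells, and the means of mt-Rnr2 and S100a8 are lowest and that of C1qc highest at 10000 cells.

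Ribosomal protein genes, whose products build the cytosolic ribosome, had estimates mostly below 0, of which few passed. Of the 31 listed and tested, 5 fell at 10000 cells, 0 rose and 26 did not pass, while 0.291% of all tested genes fell. In the list 27 had an estimate below 0, and the median was -0.27. When all ribosomal protein genes were taken by symbol, a set added after the values were seen, 81 were tested, 72 had an estimate below 0 (48.7% of all tested genes did), 8 fell and 0 rose, and the median was -0.29. In 55 of the 81 all libraries of 10000 cells lay below those of 20000 cells, which held for 9.13% of all tested genes. The summed level of the 81 genes was 5702, 5743 and 5542 CPM in the libraries of 10000 cells, against 7320.4, 6443 and 6668 CPM in those of 20000 cells.

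Rps24, a protein of the small subunit (chromosome 14, 24487125 to 24496959), had 95.4, 99.5 and 86.2 CPM at 10000 cells, against 144, 120.4 and 140.2 CPM at 20000 cells (log2 fold change -0.52, SE 0.09; adjusted p = 0.0096, edgeR). Its call was lost without libraries 1 and 3 of 10000 cells (adjusted p = 0.063 and 0.11, edgeR) and library 3 of 20000 cells (adjusted p = 0.11, edgeR). Rpl22, a protein of the large subunit, had 52.7, 55.3 and 49.4 CPM at 10000 cells, against 79.4, 72.5 and 73.7 CPM at 20000 cells (log2 fold change -0.52, SE 0.09; adjusted p = 0.014, edgeR), and it was also called in the TPM table. Its call was lost without libraries 1 and 3 of 10000 cells and without libraries 2 and 3 of 20000 cells (adjusted p = 0.076, 0.12, 0.050 and 0.099, edgeR). Rps3, Rpl7 and Rpl32, further members of the list, fell as well, with log2 fold changes between -0.35 and -0.28. Rpl22, Rpl39 (-0.60) and Rps20 (-0.55) are outside the list, and the last 2 are named after their values were seen. Rpl4, the most abundant listed member, did not pass (-0.13; adjusted p = 0.37, edgeR), nor did the elongation factor Eef1a1 (-0.17; adjusted p = 0.22, edgeR).

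Library 1 of 20000 cells, the shallowest of the 6, was the highest of its group in 58 of the 81 ribosomal protein genes and in all 8 that fell. Its summed level was still followed by 6443 and 6668 CPM in the other 2 libraries of that group, above each library of 10000 cells. Without that library 26 of the 45 genes called in the full fit were still called. Many ribosomal protein genes have processed pseudogenes with near-identical sequence, so their counts are uncertain. The part of this library's depth or composition in the result was not tested.

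**Figure D4:**
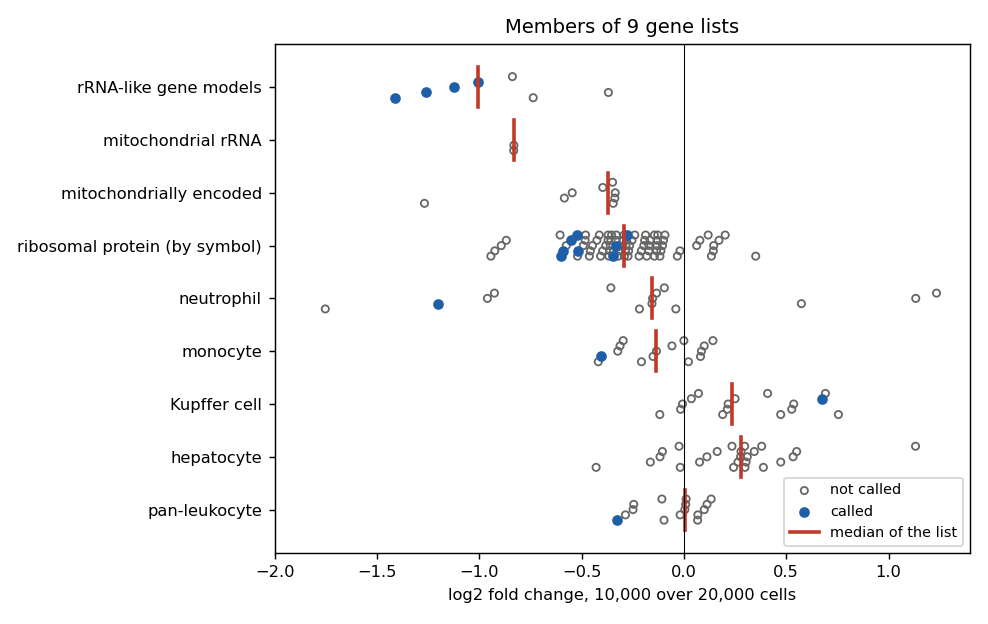
Log2 fold change of 10000 over 20000 cells for each tested member of 9 gene lists, filled where the gene passed an adjusted p of 0.05, with a red bar at the list median. The ribosomal RNA-like, mitochondrial and ribosomal protein lists lie mostly left of 0, and the Kupffer cell and hepatocyte lists mostly right of 0.

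Among myeloid genes, 1 transcript of inflammatory monocytes and 1 of neutrophils fell at 10000 cells. Ly6c2, a surface protein that marks inflammatory monocytes (chromosome 15, 75108158 to 75111970), had 400.2, 396 and 412 CPM at 10000 cells, against 585, 492 and 526 CPM at 20000 cells (log2 fold change -0.41, SE 0.06; adjusted p = 0.0045, edgeR). The groups did not overlap and the call held without each library. In such pooled samples fewer cells of a type and less RNA per cell cannot be told apart. Of the 15 monocyte genes tested, Ly6c2 alone fell, 0 rose and 14 did not pass, 10 estimates were below 0, and the median was -0.13. Plac8 (-0.31; adjusted p = 0.11, edgeR) and Ms4a6c (-0.32; adjusted p = 0.08, edgeR) had non-overlapping groups as well. Lyz2, lysozyme and the most abundant of the list, had 8958, 9113 and 9466 CPM at 10000 cells, against 10711, 9661 and 9855 CPM at 20000 cells, and did not pass (log2 fold change -0.13; adjusted p = 0.32, edgeR). Csf1r, the receptor for the macrophage growth factor M-CSF, stood at 0.09 (adjusted p = 0.75, edgeR).

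Retnlg, a resistin-like protein of neutrophils (chromosome 16, 48872621 to 48874496), had 16.6, 14.7 and 18.5 CPM at 10000 cells, against 41.6, 43.2 and 29.9 CPM at 20000 cells (log2 fold change -1.20, SE 0.23; adjusted p = 0.044, edgeR). It was the 1 of 14 tested neutrophil genes that passed, 11 had estimates below 0, and the median was -0.15. Its call was lost on leaving out any one library of the 5000-cell, 10000-cell or 20000-cell groups, with adjusted p up to 0.19 (edgeR, without library 2 of 20000 cells). The alarmins S100a8 and S100a9 were the most abundant transcripts of the list and did not pass, although their groups did not overlap. S100a8 had 251, 255 and 200.5 CPM at 10000 cells, against 538, 443 and 395 CPM at 20000 cells (log2 fold change -0.96, SE 0.18; adjusted p = 0.083, edgeR). S100a9 had a log2 fold change of -0.93 (SE 0.18; adjusted p = 0.097, edgeR). S100a8 was called by DESeq2 (adjusted p = 0.00034) and by edgeR in a fit of the 6 libraries alone (adjusted p = 0.025).

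Several other immune genes fell at 10000 cells. Fcer1g, the signalling chain of Fc receptors, had 403, 428 and 419.5 CPM at 10000 cells, against 557, 495 and 519.7 CPM at 20000 cells (log2 fold change -0.33, SE 0.06; adjusted p = 0.029, edgeR), and it was the only one of the 15 pan-leukocyte genes to pass. The interferon-induced membrane proteins Ifitm3 (-0.34) and Ifitm6 (-0.42), the calcium-binding S100a11 (-0.30) and the selenoprotein Msrb1 (-0.54) fell as well, 4 genes named after their values were seen. B2m, the light chain of MHC class I, had 3003, 3052 and 3150.5 CPM at 10000 cells, against 4245, 3465 and 3799 CPM at 20000 cells (log2 fold change -0.32, SE 0.06; adjusted p = 0.031, edgeR). Its partner heavy chain H2-D1 had 5268, 5206 and 5694 CPM at 10000 cells, against 5001, 4708 and 4849.8 CPM at 20000 cells, and did not pass (0.15; adjusted p = 0.2, edgeR). Of the 12 class I genes tested B2m alone fell, 0 rose, and 6 had libraries of 10000 cells entirely above those of 20000 cells. That held for 10.4% of all tested genes and for 23.9% in the most abundant of 10 bins of protein-coding genes. The calls of Fcer1g, B2m and Ifitm3 were each lost without any library of 10000 cells and without library 1 or 3 of 20000 cells, with adjusted p up to 0.17 (edgeR).

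The 2 genes that rose at 10000 cells, C1qc and Nrros, are both expressed by macrophages. C1qc, a chain of complement C1q that Kupffer cells make (chromosome 4, 136889804 to 136893065), had 97.2, 129 and 93.8 CPM at 10000 cells, against 65.1, 72.5 and 63.1 CPM at 20000 cells (log2 fold change 0.67, SE 0.12; adjusted p = 0.031, edgeR). Library 2 of 10000 cells was the highest, and the groups did not overlap. Without that library the log2 fold change was 0.51 and did not pass (adjusted p = 0.14, edgeR). The call was also lost without library 1 of 10000 cells (adjusted p = 0.067, edgeR) and without libraries 1, 2 and 3 of 20000 cells (adjusted p = 0.075, 0.077 and 0.19, edgeR). Nrros, which anchors latent TGF-beta on myeloid cells, had 414, 417 and 435 CPM at 10000 cells, against 349.7, 354 and 346 CPM at 20000 cells (log2 fold change 0.27, SE 0.05; adjusted p = 0.044, edgeR). Its call was lost without each of these 6 libraries, with adjusted p up to 0.23 (edgeR), and also without library 1 of 2500 cells (0.051) or library 2 of 5000 cells (0.059).

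Other Kupffer cell genes lay on the same side without passing. Of the 16 listed and tested, C1qc rose, 0 fell and 15 did not pass, 13 estimates were above 0, and the median was 0.23, against 0.00699 for all genes. In 7 the groups did not overlap, with 10000 cells higher, and in 0 with 10000 cells lower. Over all tested genes these shares were 10.4% and 9.13%. C1qb, the neighbouring chain gene, had 105, 125 and 105 CPM at 10000 cells, against 83.6, 86.2 and 71.3 CPM at 20000 cells (log2 fold change 0.47; adjusted p = 0.084, edgeR). The scavenger protein Cd5l (0.54; adjusted p = 0.12, edgeR), the Kupffer cell lectin Clec4f (0.53; adjusted p = 0.23, edgeR) and the phosphatidylserine receptor Timd4 (0.69; adjusted p = 0.17, edgeR) had non-overlapping groups. The most abundant members did not separate: Slc40a1, the iron exporter ferroportin, stood at 0.21 (adjusted p = 0.55, edgeR) and Cd68 at -0.02 (adjusted p = 0.96, edgeR). Library 2 of 10000 cells was the highest of its group in 14 of the 16 genes.

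Beyond these 2, the genes next in order of p did not pass. They were Dusp2 (0.26), a phosphatase that acts on MAP kinases, C1qb, Rsrp1 (0.28), the splicing factor Puf60 (0.23), Taz (0.28), which encodes the cardiolipin acyltransferase tafazzin, the adaptor Dok2 (0.33), the lysosomal protease Ctsb (0.18) and the glycosyltransferase B4galnt1 (0.20). Their adjusted p-values lay between 0.083 and 0.12 (edgeR). In each of them all libraries of 10000 cells lay above all libraries of 20000 cells, which held for 10.4% of all tested genes. Because these genes were picked by p on the same libraries, that separation is not separate support.

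Among the remaining genes that fell, the lowest p-values belonged to genes of varied roles. Max, the dimerisation partner of MYC (chromosome 12, 76937269 to 76962201), had 19.996, 16.8 and 15.7 CPM at 10000 cells, against 38.3, 51.7 and 56.7 CPM at 20000 cells (log2 fold change -1.49, SE 0.21; adjusted p = 0.0045, edgeR). Its mean was 24.2 CPM at 2500 cells and 16.9 CPM at 5000 cells, so the mean was highest at 20000 cells. Bahd1, which encodes a heterochromatin protein, followed the same order, with 14.1, 15.2 and 13.4 CPM at 10000 cells, against 21.5, 30.0 and 30.2 CPM at 20000 cells (log2 fold change -0.94; adjusted p = 0.0096, edgeR).

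Kctd12, an auxiliary subunit of the GABA-B receptor (chromosome 14, 102976581 to 102982637, minus strand), had 46.0, 40.8 and 35.1 CPM at 10000 cells, against 62.97, 87.3 and 76.98 CPM at 20000 cells (log2 fold change -0.90, SE 0.13; adjusted p = 0.0045, edgeR). Gm26778, a transcript on the opposite strand that overlaps Kctd12 over 4309 bases, fell too (-0.98; adjusted p = 0.045, edgeR), and the counts of the pair may hold the same reads. Laptm4a, a lysosomal membrane protein, had 139.8, 155 and 151 CPM at 10000 cells, against 199.99, 220.3 and 221 CPM at 20000 cells (log2 fold change -0.52; adjusted p = 0.0045, edgeR), a call lost only without library 3 of 20000 cells among the left-out libraries (adjusted p = 0.054, edgeR). The small GTPase Rap1a (-0.52), the retrieval receptor Kdelr1 (-0.81), prothymosin alpha Ptma (-0.50), the coatomer subunit Copg2 (-0.50) and the splicing regulator Tra2b (-0.52) fell as well. Tra2b was the 1 of 28 tested RNA-binding and splicing regulators to pass.

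Further genes that fell are named here after their values were seen. They include the mitochondrial channel Vdac1 (-0.67), the kinase Itpkb (-0.69), the splicing proteins Prpf19 (-0.78) and Lsm8 (-0.69), Mettl7a1 (-1.01), the phosphate exporter Xpr1 (-0.80), the ETS factor Elf2 (-0.43), Retreg3 (-0.51), the tubulin chaperone Tbca (-0.53), the SNARE protein Snap29 (-0.74), Cyth1 (-0.28), the general transcription factor Gtf2a1 (-0.66) and Lsm14b. Lsm14b had the largest estimate (-2.86, SE 0.58; adjusted p = 0.044, edgeR) at 0.942, 0.502 and 0.306 CPM at 10000 cells, against 2.09, 6.73 and 3.90 CPM at 20000 cells, the lowest levels among the called genes. The spans of 12 of the 45 called genes overlap another tested gene, 10 of them on the opposite strand.

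The 43 lower genes showed different patterns within the 20000-cell group. Library 1 was the highest of its group in 19 of them, the lowest in 21 and between the others in 3. The 19 had a median exonic length of 1434 bases and held all 8 ribosomal protein genes, B2m, Ly6c2 and Fcer1g. The 21 had a median exonic length of 3598 bases and held Max, Kctd12, Laptm4a, Rap1a and Bahd1. For 5000 over 20000 cells, a comparison that shares the 20000-cell libraries, 13 of the 14795 genes passed (0.0879%), all lower at 5000 cells. All 43 had an estimate below 0 there and 8 passed. All 43 also had a lower mean at 2500 than at 20000 cells. Both counts reuse the 20000-cell libraries by which the 43 were selected, so they are not separate support. The shares of all tested genes with such values were not counted. For 10000 over 5000 cells 0 of 14795 genes passed by edgeR, 664 had an unadjusted p under 0.05, and DESeq2 called 19.

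Short genes stood apart over the whole transcriptome. The shortest of 10 equal bins of protein-coding genes held 1226 genes with an exonic length up to 1750 bases. There the libraries of 10000 cells lay entirely below those of 20000 cells in 19.0% and entirely above in 5.55%. In that bin 12 genes were called lower (0.979%), in bin 3 it was 7 (0.573%), and over all 12226 protein-coding genes 39. In bin 3 the shares were 7.86% below and 16.6% above. Relative to the mean of the 12 sorted libraries, library 1 of 20000 cells was raised by a median of 0.13 (log2) in the shortest bin, against 0.03 or less in the other 5 libraries of both groups. In the longest bin it was at -0.04, while libraries 2 and 3 of 20000 cells were at 0.06 and 0.04 and library 3 of 10000 cells at -0.06. By level, 23.9% of the most abundant of 10 bins lay higher at 10000 cells with no overlap and 9.81% lower. The part of length in the calls was not tested.

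**Figure D5:**
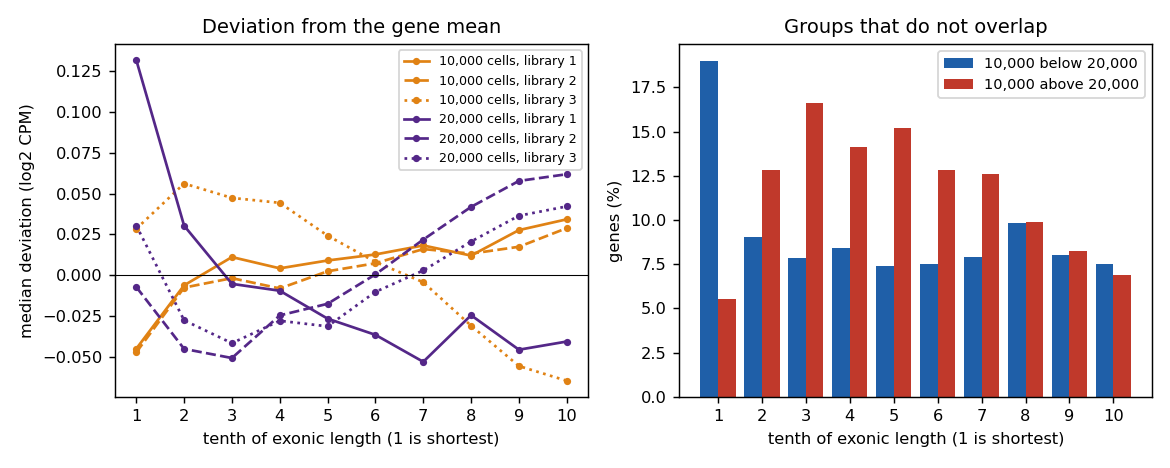
Left, median deviation of each library from the gene mean over the 12 sorted libraries (log2 CPM), by exonic length bin of protein-coding genes. Right, percentage of genes in each bin whose libraries of 10000 cells lie entirely below (blue) or above (red) those of 20000 cells; the shortest bin has 19.0% below.

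Lymphocyte lists held no call. Of 20 T cell genes, 18 natural killer and innate lymphoid genes and 16 B cell genes tested, 0 passed in either direction, and the list medians were 0.04, -0.03 and 0.07. The T cell kinase gene Lck had 466, 424 and 504 CPM at 10000 cells, against 411, 396 and 416 CPM at 20000 cells (0.19; adjusted p = 0.24, edgeR). Ighm, the heavy chain of IgM, stood at 0.09 (adjusted p = 0.73, edgeR), and Cd74, the invariant chain of MHC class II, at 0.18 (adjusted p = 0.26, edgeR). Dendritic cell, MHC class II, interferon, immediate early and heat shock lists also had 0 calls, with medians between -0.0014 and 0.07. The 16 proliferation genes had 0 calls and a median of 0.27, and Mcm2, a subunit of the replicative helicase, stood at 0.27 (adjusted p = 0.43, edgeR).

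Markers of other liver cells were scarce in both groups. The 26 hepatocyte genes took 0.0505 ± 0.00515% of counts at 10000 cells and 0.0471 ± 0.00347% at 20000 cells (SD, n = 3 each; exact two-sided permutation p = 0.3). Of the 25 tested 0 passed, 19 estimates were above 0, and the median was 0.28. Alb, albumin, had 41.8, 55.5 and 46.3 CPM at 10000 cells, against 46.7, 37.2 and 38.5 CPM at 20000 cells (0.23; adjusted p = 0.66, edgeR), while Hp, haptoglobin, which neutrophils also make, stood at -0.16 (adjusted p = 0.54, edgeR). Endothelial, stellate cell, bile duct, erythroid and platelet lists had 0 calls each. The platelet median was -0.60 over 6 tested genes, 2 of them lower without overlap, which held for 9.13% of all tested genes. Its 9 genes took 0.00269% of counts at 10000 cells and 0.00391% at 20000 cells. The medians of the other lists named in this group lay between -0.19 and 0.17. With the hepatocyte share as a covariate 34 genes passed, all lower at 10000 cells, so that neither C1qc nor Nrros was called (adjusted p = 0.083 and 0.096, edgeR).

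The median coefficient of variation between libraries, over 8505 genes with at least 16 CPM, was 6.67% at 10000 cells and 6.65% at 20000 cells, against 9.42% at 2500 and 7.08% at 5000 cells. Thinned to 6723357 counts each, the libraries of 10000 cells held 19577, 19867 and 19580 genes with at least 1 count, against 19976, 19921 and 20082 genes at 20000 cells. The mean difference was -318 genes (exact two-sided permutation p = 0.1, the smallest possible), and -70.7 genes when at least 5 counts were required (exact two-sided permutation p = 0.3). With another random seed for the thinning the difference was -305.0 genes (exact two-sided permutation p = 0.2). Spearman correlations across genes, which are not independent replicates, were 0.990 to 0.993 within a group and 0.988 to 0.991 between groups. Chi-square values divided by their degrees of freedom ran between 2.22 and 5.34 within a group and between 6.99 and 11.9 across groups. These values set libraries against read-counting error alone.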

How the data were processed

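RNA of sorted leukocytes was sequenced after SMART-seq v4 cDNA synthesis and tagmentation, per the labels' protocols. The authors deposited whole-number counts per gene and, as a separate table, TPM values. The submitters' processing notes name GRCm38 and, without role or order, DESeq2 1.34.0, featureCounts 1.5.1, STAR 2.5.2b, FastQC 0.11.5 and RSEM 1.3.0. A table of transformed values was not used here. Symbols matched 48348 genes and 446 had none, and coordinates are from GENCODE M21.

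Genes were tested with edgeR 4.0.16 in R 4.3.3 (quasi-likelihood F test, robust, TMM factors, filterByExpr by group) on the 12 sorted libraries with 1 mean per cell number, which share 1 estimate of the spread. P was adjusted by Benjamini-Hochberg over 14795 genes with a threshold of 0.05. SE is the log2 fold change divided by the root of F. Alternatives used DESeq2 1.42.0, limma 3.58.1 on log2(TPM + 1) and log2(TPM + 0.1), other scalings, filters and sets of libraries. The script was tested on simulated counts. Single values were compared by exact permutation. The main fit did not pair libraries by replicate number.

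The comparison and the 43 gene lists (666 memberships, 660 matched) were chosen with earlier results of these data known. Named were Ptprc, at most 15 passing genes of each direction at 5 CPM or more in order of p, list members that passed, and the most abundant members of lists described. Where fewer than 10 passed, the 10 with the smallest p could be named. Genes outside this rule are said to be so or serve as further list members, chosen after their values were seen. Not every gene that passed is reported here by name.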

Additional observations from a re-analysis of the deposited data

How the results depend on the processing

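All 45 calls kept their direction in every alternative, except that Gm15564 had an estimate of 0 in the unfiltered TPM values. The alternatives reuse the same libraries, and in all 45 the groups did not overlap, so the direction could hardly change. Lars2 and Mir6236 were called wherever they had a value (26 and 23 alternatives). Of the 45, 3 of 42 with a value were still called on log2(TPM + 1). On log2(TPM + 0.1) it was 3 of 42, and on unfiltered log2(TPM + 1) 2 of 43. The count of 45 (2 higher, 43 lower) became 21 with library totals (2 and 19), 286 with no filter (32 and 254), 197 by DESeq2 (27 and 170), 22 by limma-voom (0 and 22), 175 with 6 libraries only (9 and 166), and 6, 7 and 4 on log2(TPM + 1), log2(TPM + 0.1) and unfiltered log2(TPM + 1). It ranged from 7 to 114 when 1 library was left out. Against 5000 cells the count of 0 became 96 with no filter, 19 by DESeq2 and 2, 2 and 1 on TPM, with a range of 0 to 11. For 5000 against 20000 cells the count of 13 became 203 with no filter, 89 by DESeq2, 22 with 14 libraries, 4 with the hepatocyte share as a covariate and 2 in each TPM fit, with a range of 6 to 29. Why these counts moved was not tested. DESeq2 gave no adjusted p for 5454, 11473 and 4023 genes in these 3 comparisons.

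Libraries with equal replicate numbers had correlations of their deviations of -0.0139, 0.104 and 0.0838. Unequal numbers gave values from -0.324 to 0.251, so these correlations cannot settle whether the replicate numbers pair the libraries. With a replicate block 52 genes were called in the fit of 12 libraries, 218 in that of 6, and 5 for 10000 against 5000 cells. Cd68, near 0, turned to 0.0036 with library totals and positive in the TPM fits (0.10, 0.10 and 0.10). The values of Ltf, Ngp, Camp and Ighg2b depended on single libraries. Ltf, at 0.57, became -1.43 by limma-voom, -0.26 with a replicate block in 6 libraries and -0.45, -0.78 and -0.45 on TPM. With 1 library left out Ltf ranged from -5.86 to 1.49, Ngp from -3.19 to 1.89, Camp from -2.95 to 1.91 and Ighg2b from -0.90 to 2.58.

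Differences in shares and detected genes kept their direction in the alternatives run, but not their size. Detected genes ranged from -414.5 to -70.7, the leukocyte share from 0.0116 to 0.0599, the hepatocyte share from 0.00183 to 0.00882, the ribosomal RNA-like share from -0.741 to -0.230 and the mitochondrial share from -1.74 to -0.351 percentage points, with the mitochondrial -1.74 and ribosomal RNA-like -0.230 on TPM. With 3 libraries a group, no exact test can pass 0.05, and genes under about 5 CPM rest on few reads.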

Other observations

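Some transcripts stood high in 1 or a few of the 12 sorted libraries, and the 5 named here did not pass the test between groups. Ngp, Ltf and Camp, granule protein genes of immature neutrophils, were high in library 1 of 10000 cells and low in its other libraries. Ngp had 45.0, 1.41 and 0.102 CPM at 10000 cells, against 8.68, 12.0 and 0 CPM at 20000 cells. Ltf had 29.5, 0.201 and 0 CPM at 10000 cells, against 7.33, 12.0 and 0 CPM at 20000 cells, and Camp reached 8.69 CPM in library 1 of 10000 cells. Higher values stood in single libraries of the other cell numbers. Ngp had 125.5 CPM in library 2 of 2500 cells and 107 CPM in library 3 of 5000 cells, and Ltf had 112 and 74.0 CPM in the same libraries. Without that library the log2 fold changes were -3.19 for Ngp, -5.86 for Ltf and -2.95 for Camp. The more mature neutrophil genes S100a8 and Retnlg did not share this pattern.

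Immunoglobulin heavy chains gave 2 more such cases. Ighg1 had 1.88, 1.31 and 0.511 CPM at 10000 cells, against 0, 101 and 2.73 CPM at 20000 cells, so that library 2 of 20000 cells held nearly all of its reads. Ighg2b had 123, 11.2 and 15.1 CPM at 10000 cells, against 58.0, 9.00 and 7.54 CPM at 20000 cells, so that library 1 was high in both groups. Its log2 fold change of 1.03 became -0.90 without library 1 of 10000 cells.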
